A study of Mus musculus with 14 samples.

Results

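Cyclic AMP (cAMP) signalling was described here through 47 mouse genes of its core machinery in brown adipose tissue (BAT). They comprise G protein alpha subunits, adenylyl cyclases, protein kinase A (PKA) subunits and inhibitors, phosphodiesterases, kinase anchors, CREB-family factors with their coactivators, the salt-inducible kinases and Rgs2. The genes were chosen by symbol among 55471 identifiers of the count table. A low-count filter left 46 of the 47 among 15949 genes tested, and each of those 46 had at least 3 libraries at each temperature above the filter's cutoff of 0.41 CPM (counts per 1000000 gene counts), taken before TMM scaling. The CPM values given below are scaled by TMM. Adcy8, a calcium-stimulated cyclase, was the exception, with 0 to 7 counts per library.

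Tissue came from male mice aged 10 weeks. AdC3KO mice lacked, in adipocytes, CLSTN3B, an endoplasmic reticulum protein studied for its part in lipid droplet form, and WT mice were their comparison. Both genotypes had spent 2 weeks at 30 °C, a thermoneutral temperature for mice, and some mice of each were then moved to 4 °C for 6 h. The 4 groups were AdC3KO at 4 °C and WT at 4 °C (4 libraries each), and AdC3KO at 30 °C and WT at 30 °C (3 libraries each). The promoter that drove the recombination is not given in the sources used here, and cells other than adipocytes keep the gene. Nothing in the labels states that the libraries of a group came from different animals; the p-values therefore speak of spread among libraries, which may be technical.

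In brown adipocytes, noradrenaline released by sympathetic nerves acts on beta-adrenergic receptors, and the stimulatory G protein alpha subunit then activates adenylyl cyclases, which make cAMP. cAMP binds the regulatory subunits of PKA and frees its catalytic subunits, which phosphorylate lipases and the factor CREB and so drive fat release and thermogenic transcription. The signal is ended by phosphodiesterases, which hydrolyse cAMP, and is placed in the cell by A-kinase anchoring proteins. Part of the restraint is itself made by CREB, whose targets include a phosphodiesterase isoform, the repressor ICER from the Crem gene, and Sik1.

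Libraries held 19.9 M to 29.0 M gene counts (M, 1000000). Reads of the Clstn3 locus, from which Clstn3b is transcribed, ranged from 53.8 to 77.9 CPM at 4 °C in AdC3KO and from 970.04 to 1195 CPM in WT, and from 14.8 to 17.3 CPM at 30 °C in AdC3KO and from 182 to 228 CPM in WT. No library went against its genotype label. Ucp1, the uncoupling protein that marks brown fat, lay between 1382 and 15736 CPM across libraries, and none of the 10 brown adipocyte markers examined was at 0. Some libraries stood apart. Skeletal muscle transcripts (12 markers, summed) reached 491 CPM in AdC3KO replicate 3 and 48.9 CPM in WT replicate 2 at 4 °C, and 76.7 and 37.3 CPM in AdC3KO replicates 1 and 2 and 208 CPM in WT replicate 3 at 30 °C, against 3.17 to 5.89 CPM in the other 9 libraries. Interferon-response genes (9 markers, summed) reached 366 CPM in AdC3KO replicate 1 and 1194 CPM in WT replicate 4 at 4 °C, against 58.6 to 155 CPM in the other 12 libraries.

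Cold changed most of the cAMP machinery, as it did most of all tested genes. The members that changed, and their directions, were the same in both genotypes. After 6 h at 4 °C, 26 of the 46 tested members (56.5%) were higher and 8 (17.4%) were lower in AdC3KO, and the same 26 and 8 were higher and lower in WT. Among all tested genes, 31.0% were higher and 32.1% lower in AdC3KO, and 30.6% were higher and 30.8% lower in WT. The members' share of rises was above these backgrounds and their share of falls below them. The members were chosen with earlier results of these data known, so this difference is a description and not an independent test. The largest rises were in Sik1, Akap12, Pde7b and Adcy3, each more than 10-fold in both genotypes, and the largest falls in Akap5 and Adcy9. The remaining 12 members (Gnai2, Adcy5, Adcy6, Adcy7, Prkacb, Prkar1b, Prkar2b, Pkia, Pde8b, Akap8, Creb1 and Crtc3) passed the test in neither genotype.

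The median log2 fold change of the members was 0.76 in AdC3KO and 0.70 in WT, beside −0.06 and −0.03 over all tested genes. At least 2-fold rises that passed the test numbered 19 in AdC3KO and 20 in WT, and falls of that size 6 in each, beside 14.1% and 14% of all tested genes for rises and 19.9% and 18.3% for falls. The 4 °C and 30 °C libraries did not overlap for 36 members (78.3%) in AdC3KO and 33 (71.7%) in WT, where 64.1% and 60.3% of all tested genes did not overlap. Differences were called with the quasi-likelihood test of edgeR at a Benjamini-Hochberg adjusted p of 0.05 over all tested genes. Under upper-quartile scaling 25 members were higher and 13 lower in AdC3KO and 24 higher and 11 lower in WT. Rises then made up 65.8% of the members' calls in AdC3KO and 68.6% in WT, against 76.5% in each with TMM. Over all genes called they made up 36.4% in AdC3KO and 36.2% in WT, against 49.1% and 49.9% with TMM. Without the 5 libraries that held muscle transcripts the counts were 23 higher and 6 lower in AdC3KO and 23 higher and 7 lower in WT, beside 19.5% higher and 19.3% lower of all genes then tested in AdC3KO and 24.4% higher and 23% lower in WT. AdC3KO at 30 °C then had 1 library, assumed to vary like the other groups. Adcy2, Pde4c, Pde7a and Crtc1 were then called in neither genotype and Pde8a not in AdC3KO. In bulk tissue, fewer cells of a type and less RNA per cell cannot be told apart.

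**Figure D1:**
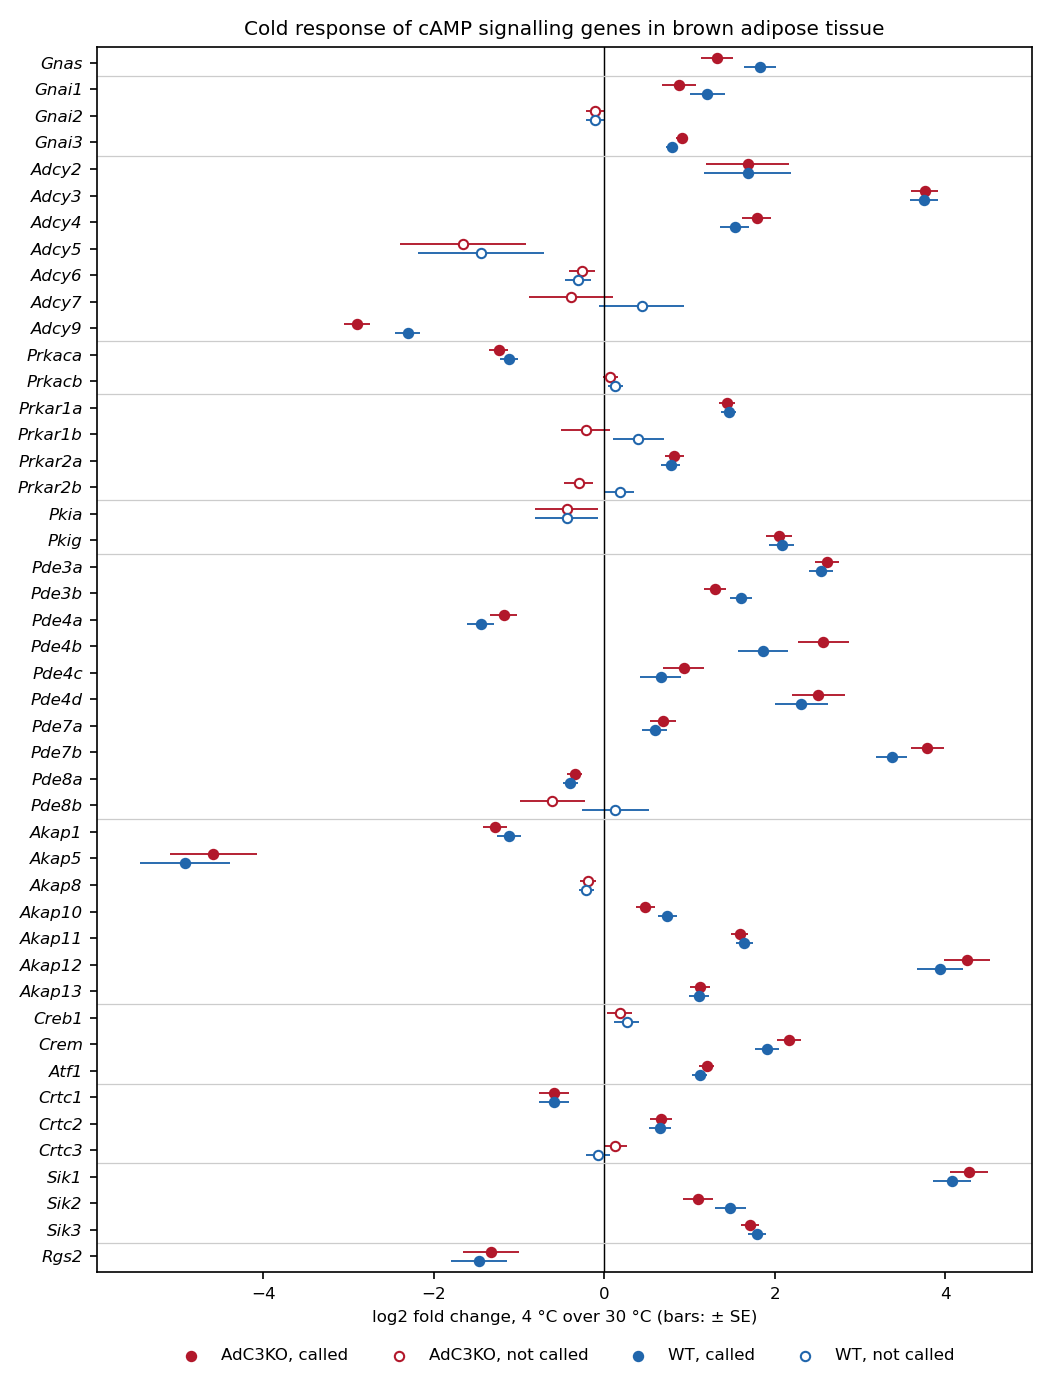
Cold response of the 46 tested genes: log2 fold change of 4 °C over 30 °C (x axis) with its SE as bars, AdC3KO in red above WT in blue, filled where the edgeR test called the gene. The filled symbols lie on the same side of 0 in both genotypes for the called genes, from Akap5 at −4.59 in AdC3KO and −4.92 in WT to Sik1 at 4.28 in AdC3KO and 4.08 in WT.

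Promoters were read for the 36 members present in the RefSeq table (GRCm38.p6), as windows of 250 bases before to 50 bases after each annotated start. Gnai2, Adcy6, Adcy8, Pkia, Pde3a, Pde3b, Pde7a, Akap12, Crem, Crtc2 and Sik1 were not in it. The motif sought was the cAMP response element TGACGTCA, which CREB binds and which reads alike on both strands. A shorter form, TGACG, was sought on either strand (CGTCA on the printed one). Each full element contains overlapping copies of the shorter form. A full element lay in a window of 1 member, Prkar1a (2.78%), beside 2.03% of all genes in the table. The shorter form lay in 19 of the 36 members (52.8%), beside 23.0% of all genes. The members had 69 windows, of which 33.3% held it beside 20.8% of all windows. It was found in 10 of the 19 members higher in cold WT tissue, in 5 of the 8 lower and in 4 of the 9 not called. Shown are the windows of 2 members that rose with motifs (Prkar1a and Sik3), 1 that rose strongly without (Adcy3) and 1 that fell strongly without (Akap5), with motif bases in capitals:
Prkar1a promoter, chr11:109650699-109650998, + strand: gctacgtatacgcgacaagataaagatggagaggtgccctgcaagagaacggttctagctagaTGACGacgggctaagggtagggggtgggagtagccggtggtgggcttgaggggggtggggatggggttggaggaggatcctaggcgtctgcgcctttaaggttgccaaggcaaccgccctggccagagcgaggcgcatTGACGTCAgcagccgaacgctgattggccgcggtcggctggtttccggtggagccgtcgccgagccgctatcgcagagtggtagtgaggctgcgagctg
Sik3 promoter, chr9:46012570-46012869, + strand: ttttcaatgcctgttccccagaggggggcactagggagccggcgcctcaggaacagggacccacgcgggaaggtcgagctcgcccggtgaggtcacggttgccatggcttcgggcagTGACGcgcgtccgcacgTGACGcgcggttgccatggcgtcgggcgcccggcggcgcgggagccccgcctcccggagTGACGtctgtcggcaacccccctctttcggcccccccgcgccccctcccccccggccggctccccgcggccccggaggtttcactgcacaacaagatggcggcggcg
Adcy3 promoter, chr12:4133147-4133446, + strand: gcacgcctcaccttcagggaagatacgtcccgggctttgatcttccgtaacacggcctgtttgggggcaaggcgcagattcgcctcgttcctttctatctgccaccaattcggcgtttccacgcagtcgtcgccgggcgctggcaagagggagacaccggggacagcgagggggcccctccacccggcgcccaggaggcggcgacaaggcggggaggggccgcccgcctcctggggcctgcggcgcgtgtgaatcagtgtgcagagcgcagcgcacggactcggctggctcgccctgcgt
Akap5 promoter, chr12:76324641-76324940, + strand: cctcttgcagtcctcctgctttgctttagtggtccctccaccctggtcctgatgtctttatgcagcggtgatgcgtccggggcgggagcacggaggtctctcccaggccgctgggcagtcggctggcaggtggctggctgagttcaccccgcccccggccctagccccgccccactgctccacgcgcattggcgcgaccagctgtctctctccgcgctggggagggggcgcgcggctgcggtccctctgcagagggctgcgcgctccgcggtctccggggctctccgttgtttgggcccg
In the Prkar1a window the full element began 49 bases before the annotated start and a further shorter form 187 bases before it. The Sik3 window held 3 shorter forms, beginning 133, 116 and 57 bases before the start. No match means here that these letters were not in these windows.

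Of the G protein subunits, the stimulatory one and 2 of the 3 inhibitory ones rose in the cold, as did 31.0% of all tested genes in AdC3KO and 30.6% in WT. Gnas (chr2:174284320-174346744, + strand, GRCm38) is the stimulatory alpha subunit that couples beta-adrenergic receptors to cyclases. It had 156, 115, 114 and 135 CPM at 4 °C in AdC3KO and 162, 125, 137 and 142 CPM in WT, against 65.2, 52.8 and 38.5 CPM at 30 °C in AdC3KO and 31.2, 37.8 and 50.2 CPM in WT. All 8 cold libraries were above all 6 warm ones. The Gnas log2 fold change was 1.32 (SE 0.19, edgeR adjusted p = 2.58e-05) in AdC3KO and 1.83 (SE 0.19, edgeR adjusted p = 1.29e-06) in WT. Gnai1 (chr5:18265135-18360355, - strand) encodes an inhibitory subunit, which lowers cyclase activity, and had 75.7, 86.8, 73.4 and 80.0 CPM at 4 °C in AdC3KO and 122, 79.9, 80.7 and 69.4 CPM in WT, against 41.6, 53.7 and 33.2 CPM at 30 °C in AdC3KO and 29.2, 44.7 and 40.4 CPM in WT. Its cold libraries, led by WT replicate 1, lay above the warm ones. Gnai1 rose by 1.84-fold in AdC3KO and 2.31-fold in WT, with a log2 fold change of 0.88 (SE 0.20, edgeR adjusted p = 0.00168) in AdC3KO and 1.21 (SE 0.21, edgeR adjusted p = 0.000156) in WT. Gnai3, another inhibitory subunit, also rose, with a log2 fold change of 0.91 (SE 0.07, edgeR adjusted p = 2.21e-08) in AdC3KO and 0.79 (SE 0.07, edgeR adjusted p = 1.06e-07) in WT. Gnai2 (chr9:107614125-107635367, - strand) is the most abundant of the inhibitory subunits per kb of exon. It had 123, 111, 113 and 123 CPM at 4 °C in AdC3KO and 103, 112, 127 and 149 CPM in WT, against 127, 118 and 134 CPM at 30 °C in AdC3KO and 144, 126 and 129 CPM in WT. Its groups overlapped, and the log2 fold change of −0.11 (SE 0.11, edgeR adjusted p = 0.411) in AdC3KO and −0.11 (SE 0.11, edgeR adjusted p = 0.378) in WT did not pass the test. Exon bases of Gnas include the alternative first exons of this imprinted locus, and 22.0% of them are shared with genes on the other strand that had at most 81 reads.

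Among the cyclases, 3 rose, 1 fell and 3 did not pass the test. Adcy3 (chr12:4133103-4213525, + strand) is a membrane cyclase also known from olfactory neurons. It had 614, 765, 826 and 706 CPM at 4 °C in AdC3KO and 587, 678, 728 and 642 CPM in WT, against 67.5, 48.6 and 44.9 CPM at 30 °C in AdC3KO and 50.3, 43.3 and 53.2 CPM in WT. The lowest cold library exceeded the highest warm one by several-fold. Adcy3 rose 13.6-fold in AdC3KO and 13.5-fold in WT, a log2 fold change of 3.76 (SE 0.16, edgeR adjusted p = 5.3e-11) in AdC3KO and 3.75 (SE 0.16, edgeR adjusted p = 5.92e-11) in WT. Cenpo, on the opposite strand, shares 22.1% of the exon bases of Adcy3 and had 1674 reads over all libraries. The strand setting of the counting is not given in the sources used here. Counts per gene do not separate isoforms of Adcy3, and its level per kb rests on all its annotated exons together. Adcy4 (chr14:55769057-55784095, - strand) is a cyclase stimulated by G protein beta-gamma subunits. It had 65.7, 79.4, 75.6 and 63.3 CPM at 4 °C in AdC3KO and 48.4, 71.7, 72.3 and 61.5 CPM in WT, against 22.6, 20.1 and 18.9 CPM at 30 °C in AdC3KO and 25.6, 16.2 and 24.3 CPM in WT. No cold library was as low as a warm one. The Adcy4 log2 fold change was 1.79 (SE 0.17, edgeR adjusted p = 1.96e-07) in AdC3KO and 1.53 (SE 0.17, edgeR adjusted p = 1.07e-06) in WT. Of all tested genes, 31.0% were higher and 32.1% lower in AdC3KO, and 30.6% and 30.8% in WT. Beside these shares, 5 of 8 endothelial markers (62.5%) were higher and 2 (25%) lower in each genotype, and none was at 0. Their summed level was 1455 to 1747 CPM at 4 °C in AdC3KO and 1339 to 1557 CPM in WT, against 655 to 752 CPM at 30 °C in AdC3KO and 653 to 873 CPM in WT, and their part in the result was not tested. Adcy2, also stimulated by beta-gamma subunits, was scarce (0.176 to 2.15 CPM) and rose, with a log2 fold change of 1.68 (SE 0.49, edgeR adjusted p = 0.00652) in AdC3KO and 1.68 (SE 0.51, edgeR adjusted p = 0.00986) in WT. Without WT replicate 3 at 30 °C, the WT value for Adcy2 was 1.40 (edgeR adjusted p = 0.0519).

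Adcy9 (chr16:4287529-4420498, - strand), a cyclase that forskolin activates only weakly, was the cyclase that fell. It had 8.24, 7.36, 6.26 and 6.83 CPM at 4 °C in AdC3KO and 9.43, 9.8, 9.5 and 9.21 CPM in WT, against 71.7, 45.7 and 43.3 CPM at 30 °C in AdC3KO and 47.9, 46.3 and 46.5 CPM in WT. Warm libraries were several-fold above cold ones without overlap, and AdC3KO replicate 1 at 30 °C was the highest. Adcy9 was lower by 7.46-fold in AdC3KO and 4.95-fold in WT, with a log2 fold change of −2.90 (SE 0.15, edgeR adjusted p = 2.81e-10) in AdC3KO and −2.31 (SE 0.15, edgeR adjusted p = 2.47e-09) in WT. Adcy6 (chr15:98589973-98610076, - strand) is a calcium-inhibited cyclase and the leading cyclase at 30 °C. It had 207, 204, 195 and 241 CPM at 4 °C in AdC3KO and 133, 202, 215 and 222 CPM in WT, against 289, 249 and 225 CPM at 30 °C in AdC3KO and 242, 207 and 269 CPM in WT. Cold and warm values overlapped in both genotypes, and the log2 fold change of −0.26 (SE 0.15, edgeR adjusted p = 0.143) in AdC3KO and −0.31 (SE 0.15, edgeR adjusted p = 0.0884) in WT did not pass. Adcy5, its close relative, varied widely between libraries (1.81 to 29 CPM) and had a log2 fold change of −1.66 (SE 0.74, edgeR adjusted p = 0.0719) in AdC3KO and −1.45 (SE 0.74, edgeR adjusted p = 0.111) in WT. Leaving out 1 library at a time moved the Adcy5 value between −2.28 (without AdC3KO replicate 3 at 4 °C, edgeR adjusted p = 0.0276) and −1.0 (without AdC3KO replicate 2 at 30 °C) in AdC3KO. In WT it moved between −1.98 (without replicate 1 at 4 °C) and −0.60 (without replicate 3 at 30 °C). Of these libraries, all but WT replicate 1 at 4 °C were among those with muscle transcripts. The part of muscle in the Adcy5 values was not tested. Adcy7, known from blood cells, ranged over 3.3 to 19.6 CPM with its top value in WT replicate 4 at 4 °C, and its log2 fold change was −0.39 (SE 0.49, edgeR adjusted p = 0.517) in AdC3KO and 0.44 (SE 0.50, edgeR adjusted p = 0.468) in WT. That library also had the highest summed level of the 8 macrophage markers, at 561 CPM. Macrophage marker sums spanned 211 to 375 CPM at 4 °C in AdC3KO and 267 to 561 CPM in WT, against 161 to 242 CPM at 30 °C in AdC3KO and 162 to 197 CPM in WT. In all, 3 of 8 markers (37.5%) were higher in cold AdC3KO tissue and 5 of 8 (62.5%) in cold WT tissue. Over all tested genes these shares were 31.0% and 30.6%. No macrophage marker was at 0, and the part of these markers in the Adcy7 values was not tested.

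**Figure D2:**
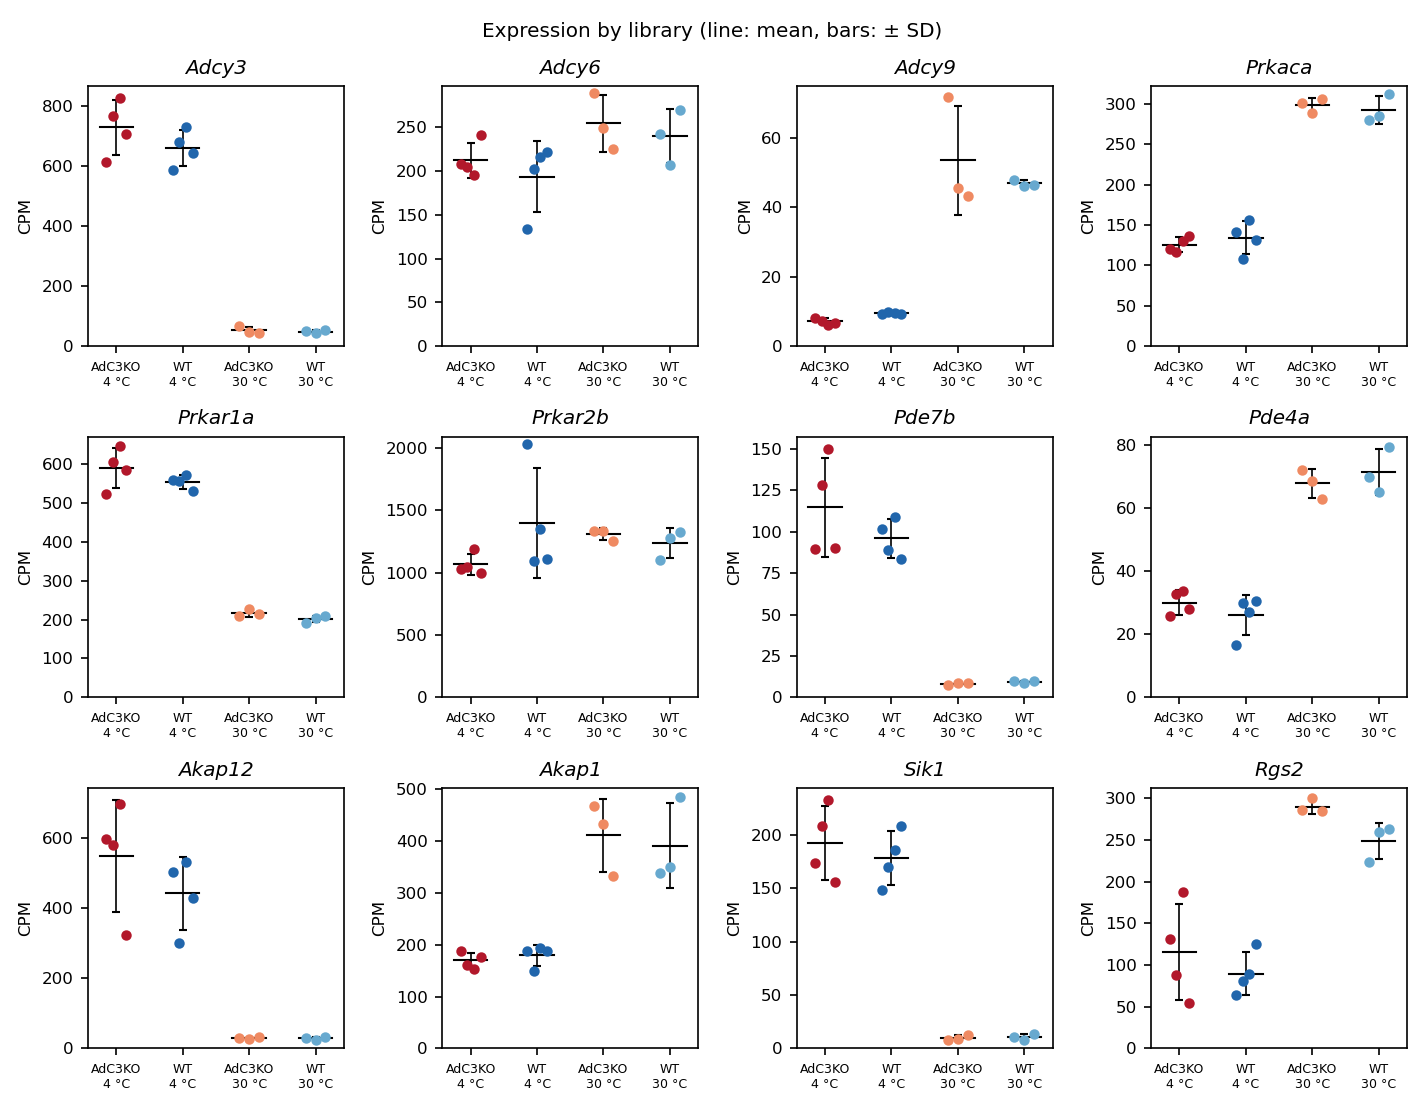
Level (CPM, TMM-scaled, y axes from 0) of 12 of the genes in each library, as points, with the group mean as a line and its SD as bars; from left to right AdC3KO and WT at 4 °C, then AdC3KO and WT at 30 °C. Adcy3, Prkar1a, Pde7b, Akap12 and Sik1 are high in the cold in both genotypes, Adcy9, Prkaca, Pde4a, Akap1 and Rgs2 are low, and Adcy6 and Prkar2b overlap between temperatures in WT.

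For PKA itself, the main catalytic subunit gene fell while 2 regulatory subunit genes and an inhibitor gene rose. Prkaca (chr8:83972993-83996443, + strand) is the catalytic alpha subunit. It had 120.3, 117, 129.8 and 137 CPM at 4 °C in AdC3KO and 141, 108, 157 and 131 CPM in WT, against 301, 289 and 305 CPM at 30 °C in AdC3KO and 279.7, 285 and 312 CPM in WT. Every cold value was well below every warm one. Prkaca fell 2.37-fold in AdC3KO and 2.17-fold in WT, a log2 fold change of −1.24 (SE 0.11, edgeR adjusted p = 4.48e-08) in AdC3KO and −1.12 (SE 0.11, edgeR adjusted p = 1.55e-07) in WT. Prkacb, the catalytic beta subunit, ranged from 69.3 to 88.9 CPM with overlap between temperatures, and its log2 fold change was 0.07 (SE 0.09, edgeR adjusted p = 0.496) in AdC3KO and 0.13 (SE 0.09, edgeR adjusted p = 0.248) in WT. The regulatory subunit RI alpha gene, Prkar1a (chr11:109649405-109669656, + strand), which carries the full element shown above, had 522, 605, 646 and 584 CPM at 4 °C in AdC3KO and 558, 555, 571 and 529.9 CPM in WT, against 209, 228 and 214 CPM at 30 °C in AdC3KO and 192, 203 and 208 CPM in WT. Replicates were close and the temperatures did not overlap. Prkar1a rose by 2.72-fold in AdC3KO and 2.75-fold in WT, a log2 fold change of 1.44 (SE 0.09, edgeR adjusted p = 1.52e-09) in AdC3KO and 1.46 (SE 0.09, edgeR adjusted p = 1.43e-09) in WT. Prkar2a, encoding RII alpha, rose with a log2 fold change of 0.82 (SE 0.11, edgeR adjusted p = 9.8e-06) in AdC3KO and 0.78 (SE 0.11, edgeR adjusted p = 1.82e-05) in WT.

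Prkar2b (chr12:31958476-32061296, - strand) encodes RII beta, the regulatory subunit typical of fat, and was the most abundant PKA gene per kb of exon. It had 1032, 1045, 1188 and 1000.1 CPM at 4 °C in AdC3KO and 2033, 1091, 1350.2 and 1108 CPM in WT, against 1337, 1336 and 1252 CPM at 30 °C in AdC3KO and 1099, 1276 and 1328 CPM in WT. WT replicate 1 at 4 °C stood well above the other libraries. The Prkar2b log2 fold change was −0.30 (SE 0.17, edgeR adjusted p = 0.142) in AdC3KO and 0.18 (SE 0.17, edgeR adjusted p = 0.389) in WT, which passed in neither genotype, although the AdC3KO groups did not overlap. Without WT replicate 1 at 4 °C it was −0.28 in AdC3KO (edgeR adjusted p = 0.0299) and −0.07 in WT (edgeR adjusted p = 0.601). Prkar1b, the RI beta gene, was scarce at 1.34 to 3.51 CPM and had a log2 fold change of −0.22 (SE 0.29, edgeR adjusted p = 0.534) in AdC3KO and 0.40 (SE 0.30, edgeR adjusted p = 0.254) in WT. Of the heat-stable inhibitors, which bind and block free catalytic subunits, Pkig (chr2:163658386-163726158, + strand) had 25, 22.6, 26.3 and 24.7 CPM at 4 °C in AdC3KO and 22, 25.4, 24.1 and 32.4 CPM in WT, against 6.35, 5.32 and 6.13 CPM at 30 °C in AdC3KO and 7.04, 6.15 and 5.31 CPM in WT. Cold values were at least 3 times the highest warm one. Pkig rose 4.15-fold in AdC3KO and 4.22-fold in WT, with a log2 fold change of 2.05 (SE 0.15, edgeR adjusted p = 6.26e-09) in AdC3KO and 2.08 (SE 0.15, edgeR adjusted p = 6.28e-09) in WT. Pkia, the other inhibitor, ranged over 3.39 to 12.9 CPM and had a log2 fold change of −0.44 (SE 0.37, edgeR adjusted p = 0.319) in AdC3KO and −0.44 (SE 0.37, edgeR adjusted p = 0.319) in WT.

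Phosphodiesterases made up the largest family, with 7 of 10 higher, 2 lower and Pde8b not called. Over all tested genes, 31.0% were higher and 32.1% lower in AdC3KO, and 30.6% and 30.8% in WT. Pde3b (chr7:114415281-114539251, + strand), the insulin-activated enzyme of adipocytes, was the most abundant per kb of exon and had 807, 811, 1063 and 735 CPM at 4 °C in AdC3KO and 1073, 841, 978 and 914 CPM in WT, against 379.6, 357 and 307 CPM at 30 °C in AdC3KO and 284, 321 and 334 CPM in WT. Even the lowest cold library was clearly above the highest warm one. Pde3b had a log2 fold change of 1.30 (SE 0.13, edgeR adjusted p = 3.71e-07) in AdC3KO and 1.60 (SE 0.13, edgeR adjusted p = 4.25e-08) in WT. Pde3a (chr6:141249269-141507448, + strand), its relative, had 84.6, 87.6, 72.2 and 71.2 CPM at 4 °C in AdC3KO and 86.4, 64.2, 79.4 and 73.5 CPM in WT, against 15.9, 11.9 and 10.8 CPM at 30 °C in AdC3KO and 12.8, 12.3 and 14 CPM in WT. No overlap was seen between temperatures. Pde3a rose 6.12-fold in AdC3KO and 5.82-fold in WT, a log2 fold change of 2.61 (SE 0.14, edgeR adjusted p = 4.84e-10) in AdC3KO and 2.54 (SE 0.14, edgeR adjusted p = 6.51e-10) in WT.

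The cAMP-specific PDE4 enzymes split. Pde4d (chr13:108449948-109953461, + strand) had 239, 305, 511 and 201 CPM at 4 °C in AdC3KO and 186, 256, 292 and 287 CPM in WT, against 62.7, 56.8 and 45.4 CPM at 30 °C in AdC3KO and 44.4, 46.5 and 63.9 CPM in WT. Its cold values were spread, with AdC3KO replicate 3 highest, yet all exceeded the warm ones. That library also held the most muscle transcripts (491 CPM, summed), and their part was not tested. Pde4d showed a log2 fold change of 2.51 (SE 0.31, edgeR adjusted p = 1.53e-05) in AdC3KO and 2.31 (SE 0.31, edgeR adjusted p = 3.15e-05) in WT. Pde4b (chr4:102087543-102607259, + strand), strongly expressed in immune cells too, had 43.7, 50.8, 86.8 and 41.2 CPM at 4 °C in AdC3KO and 33.6, 43.6, 53.4 and 47.8 CPM in WT, against 11.5, 7.1 and 9.34 CPM at 30 °C in AdC3KO and 15.2, 8.7 and 13.1 CPM in WT. AdC3KO replicate 3 was again the highest, and the temperatures did not overlap. Pde4b had a log2 fold change of 2.57 (SE 0.30, edgeR adjusted p = 7.41e-06) in AdC3KO and 1.86 (SE 0.29, edgeR adjusted p = 0.000109) in WT. None of the macrophage markers counted for Adcy7 was lower in the cold. Of 7 lymphocyte markers none was higher, and 4 (57.1%) were lower in AdC3KO and 3 (42.9%) in WT, beside 32.1% and 30.8% of all tested genes. The summed lymphocyte level was 1.60 to 4.36 CPM at 4 °C in AdC3KO and 0.884 to 9.17 CPM in WT, against 5.17 to 6.73 CPM at 30 °C in AdC3KO and 4.35 to 6.46 CPM in WT. The part of these cells in the Pde4b result was not tested. Pde4a (chr9:21165714-21213248, + strand) went the other way, with 25.8, 32.9, 33.7 and 27.9 CPM at 4 °C in AdC3KO and 16.7, 29.8, 27.2 and 30.5 CPM in WT, against 72.2, 68.7 and 62.9 CPM at 30 °C in AdC3KO and 70.0, 65.1 and 79.5 CPM in WT. All warm libraries were above all cold ones. Pde4a fell, with a log2 fold change of −1.18 (SE 0.16, edgeR adjusted p = 1.28e-05) in AdC3KO and −1.45 (SE 0.16, edgeR adjusted p = 1.55e-06) in WT. Pde4c, scarce at 4.8 to 13.4 CPM, had a log2 fold change of 0.93 (SE 0.24, edgeR adjusted p = 0.00275) in AdC3KO and 0.66 (SE 0.24, edgeR adjusted p = 0.0244) in WT, with overlapping WT groups. The WT call for Pde4c was lost without WT replicate 2 at 4 °C (0.35, edgeR adjusted p = 0.119) and without WT replicate 1 or 2 at 30 °C (0.64 and 0.59, edgeR adjusted p = 0.0649 and 0.0851). Counts per gene do not separate the long and short PDE4 isoforms.

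Of the high-affinity enzymes, Pde7b (chr10:20398004-20725078, - strand) had 89.8, 129, 150.1 and 90.4 CPM at 4 °C in AdC3KO and 102, 89.2, 109 and 83.8 CPM in WT, against 7.49, 8.52 and 8.93 CPM at 30 °C in AdC3KO and 9.69, 8.62 and 9.57 CPM in WT. Cold libraries were many times the warm ones. Pde7b rose 13.8-fold in AdC3KO and 10.3-fold in WT, a log2 fold change of 3.79 (SE 0.19, edgeR adjusted p = 3.36e-10) in AdC3KO and 3.37 (SE 0.18, edgeR adjusted p = 9.2e-10) in WT. Pde7a rose far less, with a log2 fold change of 0.69 (SE 0.15, edgeR adjusted p = 0.000759) in AdC3KO and 0.59 (SE 0.15, edgeR adjusted p = 0.00291) in WT, and its WT groups overlapped. Pde8a fell slightly, with a log2 fold change of −0.35 (SE 0.09, edgeR adjusted p = 0.00301) in AdC3KO and −0.40 (SE 0.09, edgeR adjusted p = 0.00113) in WT. Pde8b was near the detection limit at 0.493 to 1.31 CPM and had a log2 fold change of −0.61 (SE 0.38, edgeR adjusted p = 0.167) in AdC3KO and 0.13 (SE 0.39, edgeR adjusted p = 0.789) in WT.

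The anchors, which tether PKA to particular places in the cell, showed the widest range. Akap12 (chr10:4266380-4359470, + strand), also called gravin, is a scaffold that binds beta-adrenergic receptors at the plasma membrane. It had 599, 580.0, 697 and 323 CPM at 4 °C in AdC3KO and 505, 301, 533 and 431 CPM in WT, against 28.1, 27.3 and 31.2 CPM at 30 °C in AdC3KO and 28.8, 25 and 32.5 CPM in WT. Cold values varied widely within a genotype, with AdC3KO replicate 4 and WT replicate 2 lowest, and all were several-fold above the warm ones. Akap12 rose 19.0-fold in AdC3KO and 15.4-fold in WT, a log2 fold change of 4.25 (SE 0.27, edgeR adjusted p = 1.5e-08) in AdC3KO and 3.94 (SE 0.27, edgeR adjusted p = 2.84e-08) in WT. Akap1 (chr11:88830792-88864586, - strand) is the anchor of the outer mitochondrial membrane and the leading anchor among the members at 30 °C. It had 188, 161, 154 and 176 CPM at 4 °C in AdC3KO and 187, 150.2, 193 and 188 CPM in WT, against 468, 433 and 332 CPM at 30 °C in AdC3KO and 338, 350.3 and 486 CPM in WT. The cold libraries were all below the warm ones. Akap1 fell 2.42-fold in AdC3KO and 2.18-fold in WT, a log2 fold change of −1.28 (SE 0.14, edgeR adjusted p = 9.13e-07) in AdC3KO and −1.12 (SE 0.14, edgeR adjusted p = 3.98e-06) in WT.

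Akap5 (chr12:76324891-76334153, + strand) is a plasma membrane anchor that also holds the phosphatase calcineurin. It had 0.0746, 0.517, 0.586 and 0.379 CPM at 4 °C in AdC3KO and 0.766, 0.105, 0.0475 and 0.285 CPM in WT, against 6.87, 10.6 and 10.3 CPM at 30 °C in AdC3KO and 8.32, 9.22 and 9.04 CPM in WT. It was close to undetected in the cold, with 1 to 13 counts per library against 201 to 285 at 30 °C. Akap5 was lower by 24.1-fold in AdC3KO and 30.4-fold in WT, with a log2 fold change of −4.59 (SE 0.51, edgeR adjusted p = 1.9e-06) in AdC3KO and −4.92 (SE 0.53, edgeR adjusted p = 1.68e-06) in WT. Without WT replicate 1 at 4 °C the WT value for Akap5 was −5.83. Akap11 (chr14:78492246-78536808, - strand) is a large scaffold that also binds the kinase GSK3. It had 87.3, 81.7, 76.5 and 81.1 CPM at 4 °C in AdC3KO and 75.6, 83.2, 79.5 and 72 CPM in WT, against 31.2, 25.3 and 25.1 CPM at 30 °C in AdC3KO and 22.5, 26.4 and 25.7 CPM in WT. Cold and warm replicates were each tightly grouped and well apart. Akap11 rose, with a log2 fold change of 1.59 (SE 0.10, edgeR adjusted p = 1.56e-09) in AdC3KO and 1.64 (SE 0.10, edgeR adjusted p = 1.24e-09) in WT. Akap13 (chr7:75455534-75754609, + strand) is another large anchor of PKA. It had 154, 204, 172 and 191 CPM at 4 °C in AdC3KO and 182, 185, 172 and 157 CPM in WT, against 97.9, 81.3 and 70.1 CPM at 30 °C in AdC3KO and 80.4, 74.6 and 86.3 CPM in WT. Its lowest cold value was above its highest warm one. Akap13 rose, with a log2 fold change of 1.12 (SE 0.12, edgeR adjusted p = 6.28e-07) in AdC3KO and 1.11 (SE 0.12, edgeR adjusted p = 6.99e-07) in WT. Akap10, an anchor for both types of regulatory subunit, rose slightly, with a log2 fold change of 0.48 (SE 0.11, edgeR adjusted p = 0.00154) in AdC3KO and 0.74 (SE 0.11, edgeR adjusted p = 3.14e-05) in WT. For Akap8, a nuclear anchor, the log2 fold change of −0.19 (SE 0.09, edgeR adjusted p = 0.0727) in AdC3KO and −0.21 (SE 0.09, edgeR adjusted p = 0.0532) in WT did not pass, although the temperatures did not overlap in either genotype. In WT, Akap8 passed without WT replicate 2 at 4 °C (−0.26, edgeR adjusted p = 0.0356), without WT replicate 2 at 30 °C (−0.25, edgeR adjusted p = 0.049) and without AdC3KO replicate 3 at 4 °C (−0.22, edgeR adjusted p = 0.0444).

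Of the transcription factors that PKA targets, Crem and Atf1 rose and Creb1 did not pass. Crem (chr18:3266048-3337748, - strand), whose gene also yields the repressor ICER from an internal promoter, had 53, 61.2, 64.2 and 52.9 CPM at 4 °C in AdC3KO and 45.2, 47.8, 41.5 and 55.3 CPM in WT, against 10.6, 12.3 and 15.6 CPM at 30 °C in AdC3KO and 12.1, 14.4 and 11.4 CPM in WT. Cold libraries were well above warm ones in both genotypes. Crem rose 4.51-fold in AdC3KO and 3.75-fold in WT, a log2 fold change of 2.17 (SE 0.14, edgeR adjusted p = 3.09e-09) in AdC3KO and 1.91 (SE 0.14, edgeR adjusted p = 1.26e-08) in WT. Counts per gene do not separate ICER from the other Crem products. Atf1 (chr15:100227819-100261244, + strand) is a close relative of CREB. It had 57.9, 55.3, 58 and 61.3 CPM at 4 °C in AdC3KO and 54.4, 58.8, 52.5 and 56.2 CPM in WT, against 26, 25.3 and 24.5 CPM at 30 °C in AdC3KO and 22.3, 26.3 and 28.1 CPM in WT. Its replicates agreed closely within each temperature. Atf1 had a log2 fold change of 1.20 (SE 0.09, edgeR adjusted p = 9.21e-09) in AdC3KO and 1.12 (SE 0.09, edgeR adjusted p = 2.15e-08) in WT. For Creb1, the CREB gene itself, values of 29.8 to 51 CPM overlapped, and the log2 fold change was 0.18 (SE 0.15, edgeR adjusted p = 0.319) in AdC3KO and 0.26 (SE 0.15, edgeR adjusted p = 0.151) in WT. The CRTC coactivators, which enter the nucleus when dephosphorylated and join CREB, each took a different course. Crtc2 (chr3:90254163-90264125, + strand) is the most abundant of these per kb of exon. It had 57.4, 45, 49.4 and 57.4 CPM at 4 °C in AdC3KO and 41.6, 53.6, 55 and 62.7 CPM in WT, against 34.8, 34.2 and 30.2 CPM at 30 °C in AdC3KO and 35, 31.4 and 35.3 CPM in WT. Cold values were above warm ones throughout. Crtc2 rose modestly, with a log2 fold change of 0.66 (SE 0.13, edgeR adjusted p = 0.000246) in AdC3KO and 0.65 (SE 0.13, edgeR adjusted p = 0.000292) in WT. Crtc1, scarce at 4.07 to 10.4 CPM, fell, with a log2 fold change of −0.59 (SE 0.18, edgeR adjusted p = 0.0101) in AdC3KO and −0.59 (SE 0.18, edgeR adjusted p = 0.011) in WT. The WT call for Crtc1 was lost without WT replicate 1 at 30 °C (−0.51, edgeR adjusted p = 0.0523). Crtc3 had a log2 fold change of 0.13 (SE 0.14, edgeR adjusted p = 0.441) in AdC3KO and −0.07 (SE 0.14, edgeR adjusted p = 0.681) in WT and was not called.

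All 3 salt-inducible kinases, which phosphorylate CRTC proteins and hold them in the cytoplasm, rose. Over all tested genes, 31.0% rose in AdC3KO and 30.6% in WT. Sik1 (chr17:31844250-31855804, - strand) is itself a CREB target. It had 173, 208, 233 and 156 CPM at 4 °C in AdC3KO and 148, 170.2, 186 and 208 CPM in WT, against 8.01, 9.11 and 12.6 CPM at 30 °C in AdC3KO and 10.2, 8.06 and 13.2 CPM in WT. The cold libraries were more than 10 times the warm ones. Sik1 rose 19.4-fold in AdC3KO and 16.9-fold in WT, a log2 fold change of 4.28 (SE 0.22, edgeR adjusted p = 1.13e-09) in AdC3KO and 4.08 (SE 0.22, edgeR adjusted p = 1.64e-09) in WT. Sik2 (chr9:50892801-51009073, - strand) is the form known for its abundance in fat. It had 301, 281, 342 and 279.7 CPM at 4 °C in AdC3KO and 429, 319, 383 and 285 CPM in WT, against 182, 137 and 103 CPM at 30 °C in AdC3KO and 114, 119 and 147 CPM in WT. WT replicate 1 at 4 °C was the highest and no warm library reached a cold one. The Sik2 log2 fold change was 1.10 (SE 0.18, edgeR adjusted p = 7.78e-05) in AdC3KO and 1.48 (SE 0.18, edgeR adjusted p = 4.7e-06) in WT. Ppp2r1b, on the opposite strand, shares 15% of the exon bases of Sik2 and had 34483 reads over all libraries. Sik3 (chr9:46012820-46224194, + strand), whose promoter holds the 3 shorter forms shown above, had 162, 170.4, 175 and 178 CPM at 4 °C in AdC3KO and 168, 166, 188 and 147 CPM in WT, against 59.6, 52.9 and 44.9 CPM at 30 °C in AdC3KO and 49.4, 43.8 and 51.8 CPM in WT. Its cold and warm libraries were clearly apart. Sik3 showed a log2 fold change of 1.71 (SE 0.11, edgeR adjusted p = 1.85e-09) in AdC3KO and 1.79 (SE 0.11, edgeR adjusted p = 1.33e-09) in WT.

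Rgs2 (chr1:143999338-144004161, - strand), which speeds the shutdown of G proteins, chiefly of the Gq class, and also binds some cyclases, fell in the cold. It had 131, 88.6, 188 and 54.8 CPM at 4 °C in AdC3KO and 64.5, 80.6, 89.1 and 125 CPM in WT, against 286, 300.3 and 284 CPM at 30 °C in AdC3KO and 224, 259 and 263 CPM in WT. The cold AdC3KO libraries differed widely among themselves but stayed under the warm ones. Rgs2 had a log2 fold change of −1.33 (SE 0.33, edgeR adjusted p = 0.00416) in AdC3KO and −1.47 (SE 0.33, edgeR adjusted p = 0.00232) in WT. Of all tested genes, 32.1% were lower in AdC3KO and 30.8% in WT. Markers of pericytes and smooth muscle had 3 of 6 tested (50%) lower and 1 higher in AdC3KO and 4 of 6 (66.7%) lower in WT, none at 0. Their summed level was 91.0 to 136 CPM at 4 °C in AdC3KO and 94.6 to 133 CPM in WT, against 210.3 to 244 CPM at 30 °C in AdC3KO and 214 to 257 CPM in WT, and their part in the Rgs2 result was not tested.

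The make-up of each family was compared per length, as CPM per kb of exon, which is a description without a test. At 4 °C Adcy3 provided 69.9 ± 2.74% of cyclase transcripts in AdC3KO and 69.6 ± 2.77% in WT, against 13.4 ± 1.0% in AdC3KO and 13 ± 0.349% in WT at 30 °C (SD, n = 4 each at 4 °C and 3 each at 30 °C, here and below). Adcy6 provided 18.9% in AdC3KO and 18.6% in WT at 4 °C, against 58.8% in AdC3KO and 58.7% in WT at 30 °C. Counted per gene, with isoforms not separated, Adcy3 thus led the cyclase transcripts in the cold and Adcy6 in the warm. The summed cyclase level was 166 ± 14.5 CPM per kb in AdC3KO and 152 ± 16.9 in WT at 4 °C, against 63.9 ± 10.1 in AdC3KO and 60.1 ± 7.45 in WT at 30 °C. Of the transcripts of the 7 member anchors, Akap12 provided 54.5% in AdC3KO and 48.9% in WT at 4 °C, against 3.82% in AdC3KO and 3.94% in WT at 30 °C. Other anchors, such as Opa1 and Arfgef2, were not counted in these shares. Akap1 provided 25.8% in AdC3KO and 29.7% in WT at 4 °C, against 78.2% in AdC3KO and 77.9% in WT at 30 °C.

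The leading PKA inhibitor also differed between temperatures. Pkig provided 79.8% in AdC3KO and 77.3% in WT at 4 °C, against 41.4% in AdC3KO and 38.4% in WT at 30 °C, and Pkia the rest. Prkar2b remained the leading regulatory subunit, with 66.9 ± 1.49% in AdC3KO and 72.9 ± 5.27% in WT at 4 °C, against 86.7 ± 0.497% in AdC3KO and 86.9 ± 0.686% in WT at 30 °C. Prkar1a took 31.3% in AdC3KO and 25.6% in WT at 4 °C, against 12.1% in AdC3KO and 12.0% in WT at 30 °C. The summed catalytic level over the summed regulatory level was 0.137 ± 0.0142 in AdC3KO and 0.125 ± 0.0228 in WT at 4 °C, against 0.311 ± 0.0190 in AdC3KO and 0.325 ± 0.0196 in WT at 30 °C. This transcript ratio was lower in both cold groups. Without scaling by length it was 0.120 in AdC3KO and 0.111 in WT at 4 °C, against 0.240 in AdC3KO and 0.251 in WT at 30 °C. Pde3b led the phosphodiesterases in each group, with 58.1% in AdC3KO and 64.1% in WT at 4 °C, against 51.6% in AdC3KO and 49.5% in WT at 30 °C. Pde8a, second at 30 °C per kb of exon, made up 8.54% in AdC3KO and 7.53% in WT at 4 °C, against 23.4% in AdC3KO and 23.3% in WT at 30 °C. With CPM not divided by length, Pde3b still led each group. Its mean share in AdC3KO was then lower at 4 °C (56.3%) than at 30 °C (59.2%). In WT it stayed higher at 4 °C (62.4%) than at 30 °C (56.8%). Pde4a was then ahead of Pde8a in the WT mean at 30 °C. Among the salt-inducible kinases, Sik1 provided 42.7% in AdC3KO and 38.8% in WT at 4 °C, against 9.17% in AdC3KO and 9.87% in WT at 30 °C. Sik2 provided 36.1% in AdC3KO and 41.2% in WT at 4 °C, against 65.4% in AdC3KO and 64.7% in WT at 30 °C. Sik1 was thus ahead of Sik2 in each cold AdC3KO library, while in cold WT tissue their shares overlapped. Without scaling by length Sik2 was ahead in each library.

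**Figure D3:**
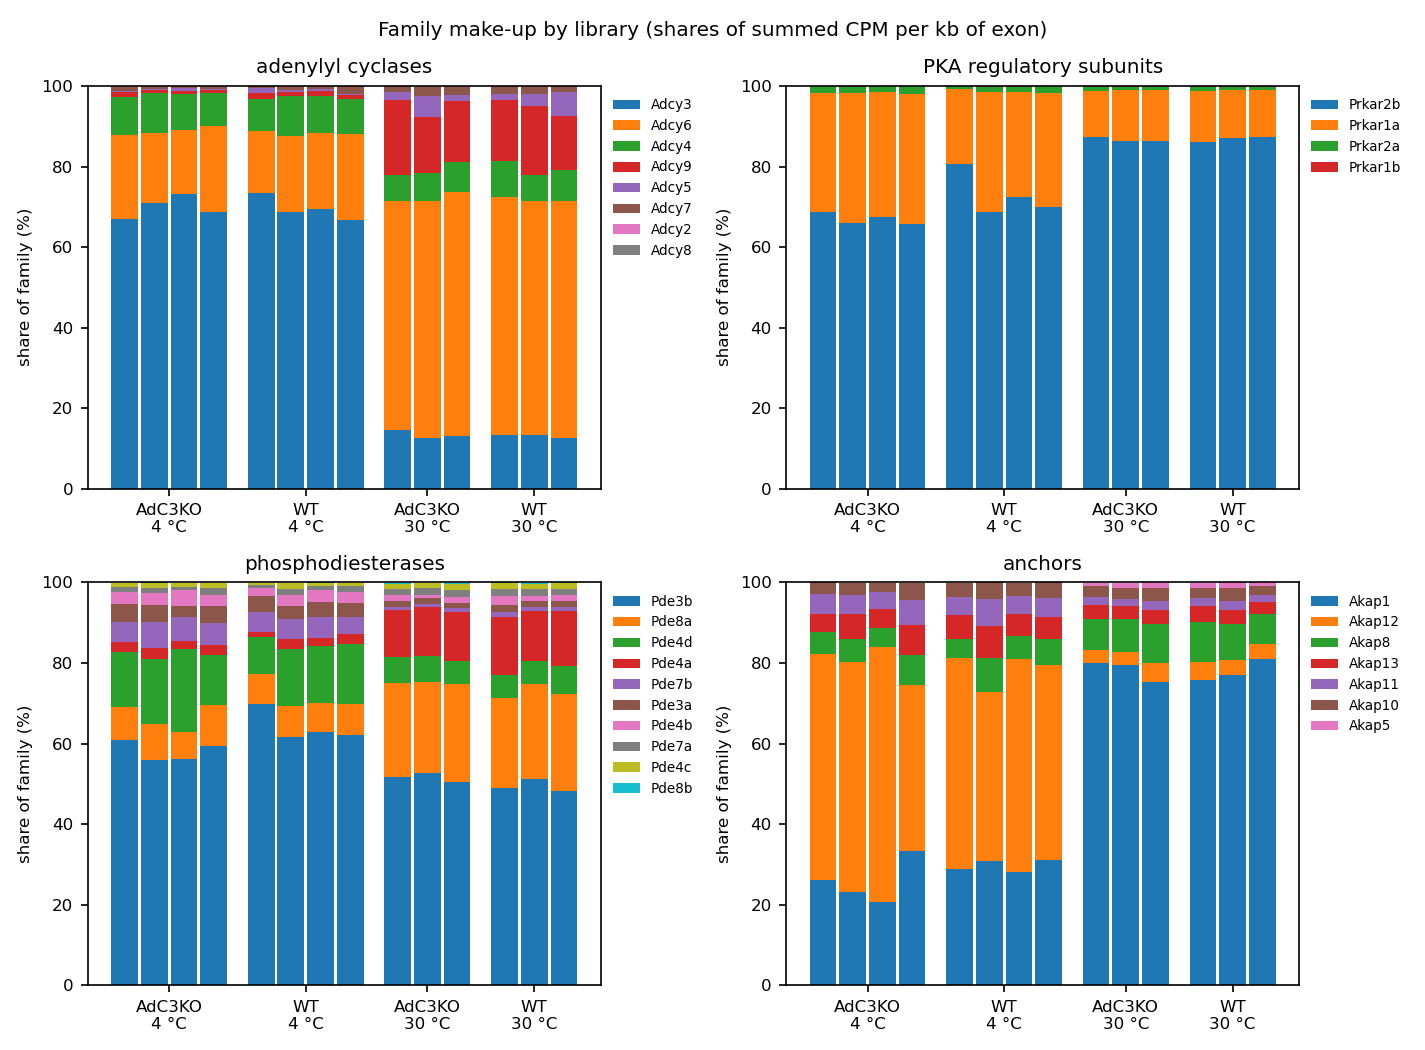
Make-up of 4 families in each library (1 bar per library, y axis: share of the summed CPM per kb of exon of the family's members among the 47 genes, in %), with AdC3KO left of WT at 4 °C and then at 30 °C. Adcy3 grows and Adcy6 shrinks at 4 °C, Akap12 takes the place of most of Akap1, Prkar1a takes share from Prkar2b, and Pde3b leads throughout.

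Genes of the pathway outside these families were also counted, and each count stands against the 31.0% higher and 32.1% lower of all tested genes in AdC3KO and the 30.6% and 30.8% in WT. Of 11 receptors tested, 2 (18.2%) were higher and 5 (45.5%) lower in each genotype. Adora1, the inhibitory adenosine A1 receptor, had a mean ± SD of 15.8 ± 1.89 CPM at 4 °C in AdC3KO and 19.8 ± 3.17 CPM in WT, against 96.9 ± 9.11 CPM at 30 °C in AdC3KO and 94.1 ± 6.34 CPM in WT, over 4 libraries a group at 4 °C and 3 at 30 °C. Adora1 fell, with a log2 fold change of −2.61 (SE 0.13, edgeR adjusted p = 1.27e-10) in AdC3KO and −2.25 (SE 0.12, edgeR adjusted p = 5.63e-10) in WT. Ptger3, a prostaglandin E2 receptor that also lowers cAMP, had a log2 fold change of −1.89 (SE 0.26, edgeR adjusted p = 2.8e-05) in AdC3KO and −1.61 (SE 0.26, edgeR adjusted p = 0.000121) in WT. Adrb3 encodes the main beta-adrenergic receptor of mouse brown adipocytes. It had a log2 fold change of −0.13 (SE 0.36, edgeR adjusted p = 0.762) in AdC3KO and 0.14 (SE 0.36, edgeR adjusted p = 0.763) in WT and was not called; it was named after its values were seen. No receptor kinase or arrestin of 7 was higher and 3 (42.9%) were lower in each genotype, among them Arrb1, which uncouples receptors, and Grk6, a receptor kinase. The log2 fold change of Arrb1 was −1.55 (SE 0.16, edgeR adjusted p = 3.27e-07) in AdC3KO and −1.56 (SE 0.16, edgeR adjusted p = 3.34e-07) in WT, and that of Grk6 was −0.89 (SE 0.13, edgeR adjusted p = 1.51e-05) in AdC3KO and −0.80 (SE 0.13, edgeR adjusted p = 4.5e-05) in WT.

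Of 24 other G protein subunits and regulators tested, 6 (25%) were higher and 7 (29.2%) lower in each genotype, near the shares over all genes. Gng7, a gamma subunit, had a log2 fold change of −1.85 (SE 0.14, edgeR adjusted p = 1.67e-08) in AdC3KO and −1.81 (SE 0.14, edgeR adjusted p = 2.57e-08) in WT, and Rgs3, a G protein regulator, had −1.54 (SE 0.19, edgeR adjusted p = 7.97e-06) in AdC3KO and −1.63 (SE 0.20, edgeR adjusted p = 5.09e-06) in WT. Of 7 other cyclases, effectors and inhibitors, 2 were higher and 2 lower in AdC3KO, and 2 higher and 1 lower in WT. Popdc2, a cAMP-binding membrane protein, had a log2 fold change of −2.73 (SE 0.23, edgeR adjusted p = 3.58e-08) in AdC3KO and −3.22 (SE 0.24, edgeR adjusted p = 1.03e-08) in WT, and Prkx, a kinase related to the PKA catalytic subunits, had 1.40 (SE 0.11, edgeR adjusted p = 2.2e-08) in AdC3KO and 1.35 (SE 0.11, edgeR adjusted p = 3.64e-08) in WT. Of 6 other phosphodiesterases, 3 were higher and none was lower in each genotype. Pde1c, a calcium-activated enzyme, averaged 7.68 ± 1.44 CPM at 4 °C in AdC3KO and 9.43 ± 4.97 CPM in WT, against 0.234 ± 0.0557 CPM at 30 °C in AdC3KO and 0.265 ± 0.123 CPM in WT. The Pde1c log2 fold change was 4.99 (SE 0.47, edgeR adjusted p = 2.45e-07) in AdC3KO and 5.10 (SE 0.47, edgeR adjusted p = 2e-07) in WT, and that of Pde10a, which hydrolyses cAMP and cGMP, was 0.99 (SE 0.18, edgeR adjusted p = 0.000148) in AdC3KO and 0.69 (SE 0.18, edgeR adjusted p = 0.00309) in WT. Of 13 other anchors, 3 were higher and 3 lower in AdC3KO, and 5 higher and 4 lower in WT. Cbfa2t3 had a log2 fold change of 1.59 (SE 0.18, edgeR adjusted p = 1.93e-06) in AdC3KO and 1.78 (SE 0.18, edgeR adjusted p = 6.9e-07) in WT, and Akap7, a short membrane anchor, had −1.75 (SE 0.13, edgeR adjusted p = 8.44e-09) in AdC3KO and −1.67 (SE 0.13, edgeR adjusted p = 1.44e-08) in WT. Of 19 CREB partners and targets, 14 (73.7%) were higher and 3 (15.8%) lower in AdC3KO, and 15 (78.9%) higher and 3 lower in WT, beside 31.0% and 30.6% higher over all tested genes. This list mixes partners with targets and was chosen with earlier results of these data known, so its count is not a test. Dio2, the deiodinase that makes active thyroid hormone in brown fat, averaged 3617 ± 298.0 CPM at 4 °C in AdC3KO and 3344 ± 488.0 CPM in WT, against 17.2 ± 4.28 CPM at 30 °C in AdC3KO and 14.8 ± 2.21 CPM in WT. Dio2 had a log2 fold change of 7.72 (SE 0.22, edgeR adjusted p = 9.66e-13) in AdC3KO and 7.82 (SE 0.22, edgeR adjusted p = 9.44e-13) in WT, and Nr4a3, an orphan nuclear receptor that CREB induces, had 7.55 (SE 0.59, edgeR adjusted p = 5.12e-07) in AdC3KO and 7.69 (SE 0.62, edgeR adjusted p = 6.73e-07) in WT.

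Whether loss of CLSTN3B alters this machinery was asked by setting AdC3KO against WT at each temperature. At 4 °C none of the 46 members was called by edgeR, beside 0.0502% of all tested genes (8 genes). An unadjusted edgeR p under 0.05 was found for 3 members (6.52%), beside 4.8% of all tested genes. DESeq2 called none of the members either and 22 genes in all. Log2 fold changes of the members ran from −0.62 to 0.47, with a median SE of 0.14. The lowest p belonged to Adcy9, with a log2 fold change of −0.40 (SE 0.14), an unadjusted p of 0.0133 from edgeR and an adjusted p of 0.963. Its 4 AdC3KO libraries lay between 6.26 and 8.24 CPM and its 4 WT libraries between 9.21 and 9.80 CPM, without overlap, as for 2.27% of all tested genes. Prkar2b followed at −0.39 (SE 0.16), and without WT replicate 1, the library at 2033 CPM, it was −0.13. Crem was next at 0.28 (SE 0.12), with 52.9 to 64.2 CPM in AdC3KO and 41.5 to 55.3 CPM in WT. Prkar2a at 0.18 (SE 0.10) and Pde7b at 0.26 (SE 0.15) completed the 5 with the lowest p. None of these passed the adjustment; differences of the size of these standard errors were not detectable here, which does not show that the genotypes are alike.

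At 30 °C no member was called by edgeR or DESeq2, beside 0.0439% of all tested genes (7 genes by edgeR and 8 by DESeq2). No member had an unadjusted edgeR p under 0.05, beside 1.33% of all tested genes. Log2 fold changes ran from −0.40 to 0.57 with a median SE of 0.16. The 5 members with the lowest p were Gnas at 0.39 (SE 0.20), Akap10 at 0.17 (SE 0.12), Pde8b at 0.57 (SE 0.40), Pde4b at −0.40 (SE 0.31) and Akap11 at 0.13 (SE 0.10), each with an edgeR adjusted p of 1. Libraries of the genotypes did not overlap for Prkar1a, with 209 to 228 CPM in AdC3KO and 192 to 208 CPM in WT, nor for Rgs2, with 284 to 300.3 CPM in AdC3KO and 224 to 263 CPM in WT; 7.29% of all tested genes did not overlap there. The interaction, the AdC3KO cold response minus that of WT, was called for no member and no gene (0.0%) by edgeR or DESeq2. Its estimates ran from −0.83 for Adcy7 to 0.72 for Pde4b. Adcy9 was the only member (2.17%) with an unadjusted p under 0.05 there, beside 2.19% of all tested genes. Its estimate was −0.59 (SE 0.21), with an unadjusted p of 0.012 from edgeR and an adjusted p of 1, and its fall was 7.46-fold in AdC3KO and 4.95-fold in WT. The Adcy9 difference thus did not pass the adjustment.

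**Figure D4:**
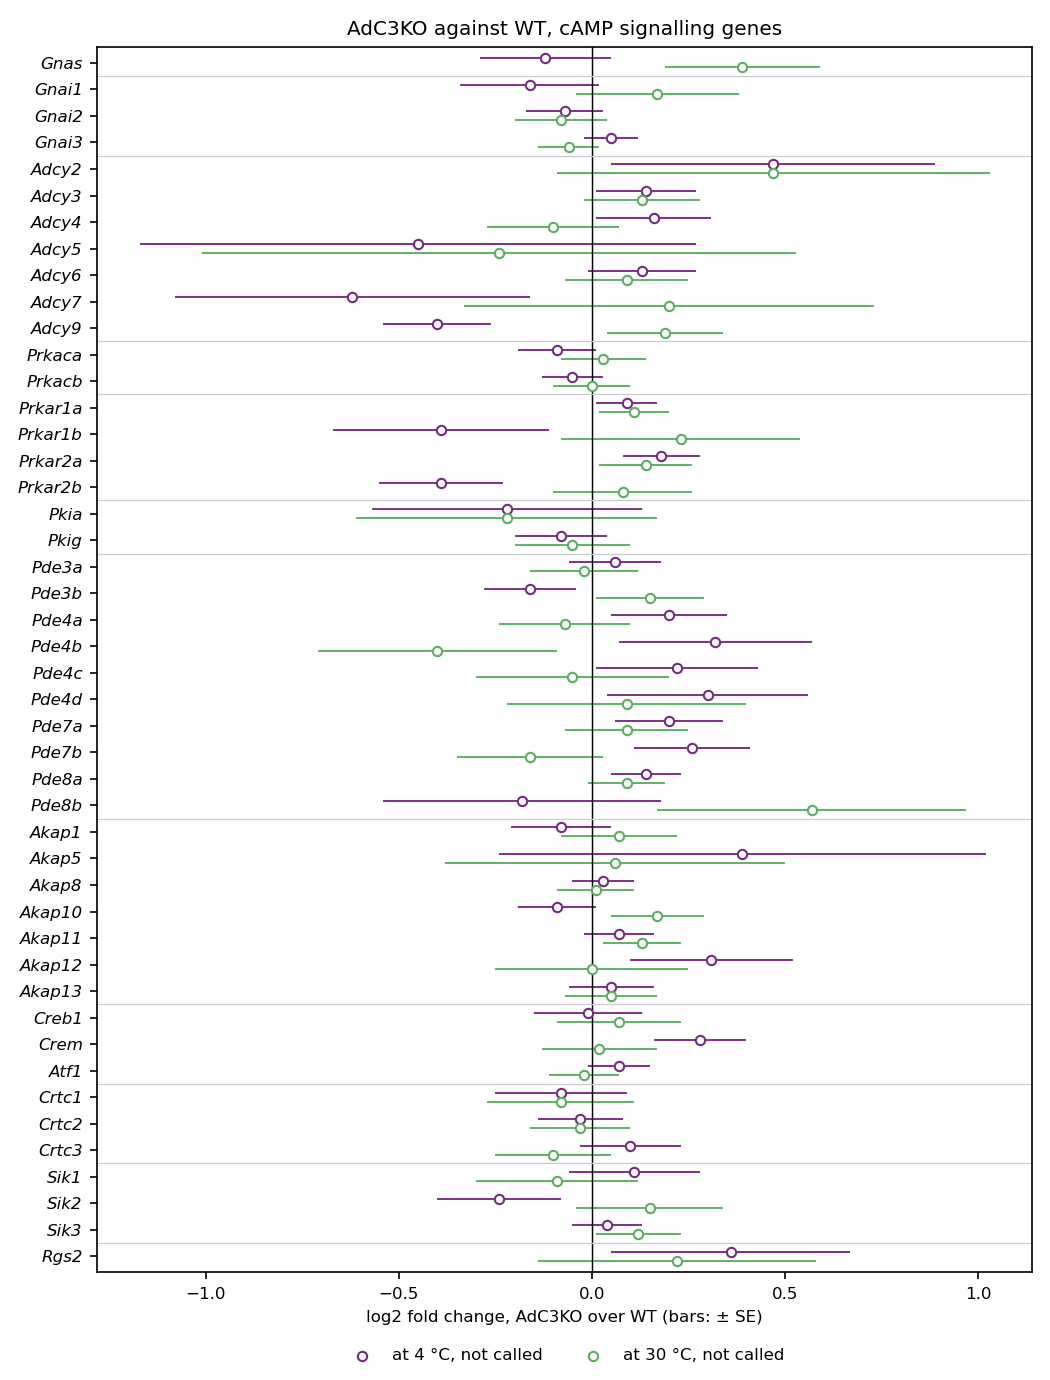
AdC3KO against WT for the 46 tested genes: log2 fold change (x axis) with its SE as bars, at 4 °C in purple above 30 °C in green, open because none was called. The values lie between −0.62 and 0.57, and no symbol is filled.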

How the data were processed

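RNA of 14 brown adipose tissue libraries was sequenced, in 4 groups given by the genotype and treatment labels. Per the labels' protocols, TRIzol and RNeasy columns were used for extraction and a NEBNext Ultra II kit for the libraries. Per the series' design text, the authors used Trimmomatic, STAR on GRCm38/mm10, HTSeq for counting and DESeq2 for testing. Tool versions, annotation release and strand setting are not given in these sources. The deposited values are raw read counts per Ensembl gene. Lines naming no gene (5 in all) were left out; they held 5.95% to 8.19% (outside genes) and 5.53% to 6.03% (ambiguous) of a library. A GENCODE annotation of the same build gave symbols for 55144 of 55471 identifiers. Replicate libraries differed beyond sampling noise.

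Counts were filtered with filterByExpr (minimum count 10) and scaled by TMM. The factors were 0.822 to 0.954 at 4 °C and 1.107 to 1.21 at 30 °C, without overlap, so the scaling enters every cold comparison. Counts were fitted in edgeR 4.0.16 as 4 group means with robust quasi-likelihood F-tests, adjusted by Benjamini-Hochberg over 15949 genes. The common biological coefficient of variation was 0.20. Scaling, filter, test (DESeq2 1.42.0), libraries and a replicate block were varied, and the scripts were tested on simulated data. Deviations of same-numbered libraries from their group means correlated between −0.34 and 0.30, and the numbers were not used as pairs. With so few libraries a group, this cannot settle whether such libraries share a batch. Members and lists were chosen with earlier results of these data known. Full values are given for members called in the cold with a log2 fold change of at least 1 either way and at least 5 CPM in the higher group, and for the most abundant of each family. Of each outside list, the 2 called genes with the largest change in cold WT tissue and at least 5 CPM are named.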

Additional observations from a re-analysis of the deposited data

Results flagged for a closer look

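Among 94 sets of 4 libraries at 4 °C, 3 held a library far from the other 3 relative to the set's whole range, and chance alone flags about 1 set in 20. Pde8a had 49.1 CPM in AdC3KO replicate 1, against 56.1 to 57.3 CPM in the other AdC3KO libraries. Akap1 had 150.2 CPM in WT replicate 2, against 187 to 193 CPM in the other WT libraries. Akap8 had 69.0 CPM in AdC3KO replicate 3, against 77.5 to 78.3 CPM in the other AdC3KO libraries. The cold calls of Pde8a and Akap1 did not change when that library was left out, and Akap8 was not called with or without its library in AdC3KO.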

How the results depend on the processing

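Over 23 alternatives, 1036 of 1058 checks of single members in cold AdC3KO tissue and 1026 of 1058 in cold WT tissue kept their direction and their side of the threshold. Upper-quartile scaling moved the count called lower in cold AdC3KO tissue to 13 (8 with TMM); it also shifted the median log2 fold change of all tested genes to −0.29 in AdC3KO and −0.27 in WT, and the share of higher among all calls to 36.4% and 36.2% (49.1% and 49.9% with TMM). Reversed values all belonged to members that were not called. Under upper-quartile scaling these were Prkacb −0.16, Creb1 −0.06 and Crtc3 −0.10 in AdC3KO, and Prkacb −0.12, Prkar2b −0.06 and Pde8b −0.11 in WT. Without the filter Prkacb was −0.02 in AdC3KO. Without the interferon-high libraries Adcy7 was −0.18 and Pde8b −0.19 in WT. Leaving out 1 library at a time gave WT values of −0.18 to 0.69 for Adcy7, −0.07 to 0.28 for Prkar2b, −0.19 to 0.37 for Pde8b and −0.18 to 0.01 for Crtc3. The cause was not tested. With the replicate number as a block, the counts were 26 higher and 8 lower in AdC3KO and 26 higher and 9 lower in WT, where Pde8b was −0.01 and Adcy6 came to the threshold at −0.38 (edgeR adjusted p = 0.05). Same-numbered libraries correlated between −0.34 and 0.30, so the numbers were not used as pairs. With 3 or 4 libraries a group, this check cannot settle whether such libraries share a batch. Without the muscle-bearing libraries Adcy2, Pde4c, Pde7a and Crtc1 lost their call in both genotypes and Pde8a lost it in AdC3KO; AdC3KO at 30 °C then had 1 library, assumed to vary like the other groups. No member was called between genotypes or in the interaction in any alternative. Members near 1 CPM or below (Adcy2, Adcy8, Pde8b and, in the cold, Akap5) are limited by depth.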
